A study of Mus musculus with 15 samples.

Results

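Catecholamines released by sympathetic nerves and the adrenal medulla act on islet cells through adrenergic receptors, which are G-protein coupled receptors of 3 classes. Alpha-1 receptors couple mainly to Gq and raise inositol trisphosphate and calcium, alpha-2 receptors couple to Gi and Go and lower cAMP, and beta receptors couple to Gs and raise cAMP. In the pancreas, alpha-2 receptors are best known for the inhibition of insulin secretion by adrenaline and noradrenaline. The genes described here are the 8 adrenergic receptor genes picked by symbol from the 38283 genes of the expression table: 3 alpha-1 receptors (*Adra1a*, *Adra1b*, *Adra1d*), 3 alpha-2 receptors (*Adra2a*, *Adra2b*, *Adra2c*) and the beta receptors *Adrb1* and *Adrb3*.

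RNA was sequenced from flow-sorted mouse islet cells in 15 samples, all on a C57BL/6 background and without treatment. Glu-Venus mice gave 5 alpha cell and 4 beta cell samples. In these mice the proglucagon promoter drives the fluorophore Venus, and beta cells were the Venus-negative cells with high scatter and autofluorescence. The 6 delta cell samples were from Sst-CreXROSA26EYFP/EYFP mice, in which Cre driven by the somatostatin promoter switches on EYFP, so cell type and mouse line cannot be told apart in any comparison with delta cells. Each sample was a pool of islets from several mice, and the ages of the animals were not given in the sources used here. Values are FPKM, that is, fragments per kilobase of transcript after scaling for library size, which allows levels to be set side by side between genes.

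The labelled cell types matched their hormones. *Gcg* was at 184426 FPKM or more in every alpha sample and at 1817 or less elsewhere, *Ins2* was at 91248 or more in every beta sample and at 9094 or less elsewhere, and *Sst* was at 101492 or more in every delta sample and at 2427 or less elsewhere. The table gives no read totals, but low values fell on steps of single reads in 6 samples (alpha 2 and 5, delta 1 to 4). With an assumed fragment of 200 nt, these give approximate totals of 7.5 M to 30.6 M reads. Summed ribosomal protein FPKM split the samples into a higher set (alpha samples 1 to 3, beta sample 2, delta samples 1 and 2) and a lower set, and values within these sets are given beside the main result.

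Of the 8 genes, *Adra2a* had the highest level in beta and in delta cells. It encodes the alpha-2A receptor and lies on chromosome 19, where GENCODE M21 places it at chr19:54044151-54048982 (GRCm38, plus strand) as a gene whose longest transcript is a single exon. It reached 8.89, 11.8, 4.11 and 6.05 FPKM in beta samples 1 to 4. In delta cells it ran from 2.11 to 5.54 FPKM with a median of 3.54. In alpha cells it was at 1.56, 0.0853, 0.0763, 0.270 and 0.343 FPKM in samples 1 to 5. Every beta and every delta sample lay above every alpha sample, while beta and delta samples overlapped. Groups were as fully separated for 8.12% of the 14405 genes tested (defined below) between beta and alpha cells and for 6.64% between delta and alpha cells. The means were 7.72 ± 3.37 FPKM in beta cells (SD, n = 4), 3.56 ± 1.16 in delta cells (SD, n = 6) and 0.466 ± 0.620 in alpha cells (SD, n = 5). Because these are bulk samples, fewer cells with the transcript and less transcript per cell cannot be told apart.

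The windows around the RefSeq starts of *Adra2a* and *Adrb1*, the 2 members that passed 1 FPKM in any sample, are shown for reference. Both are on the plus strand of chromosome 19 in GRCm38.p6 and hold 250 bases before the start and 50 from it on. Capitals mark a match, on either strand, to 1 of 4 short motifs. The first, TATAAA, is a core promoter element. The E-box searched was CACGTG, bound by basic helix-loop-helix factors. The Sp1 motif was searched as GGGCGG. The cAMP response element was searched as TGACGTCA.
Adra2a: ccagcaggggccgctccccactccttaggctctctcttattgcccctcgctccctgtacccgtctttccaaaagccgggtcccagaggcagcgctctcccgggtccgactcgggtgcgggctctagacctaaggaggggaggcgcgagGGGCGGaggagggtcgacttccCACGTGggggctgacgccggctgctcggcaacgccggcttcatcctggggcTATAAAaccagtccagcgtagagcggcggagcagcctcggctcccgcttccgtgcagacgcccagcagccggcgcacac
Adrb1: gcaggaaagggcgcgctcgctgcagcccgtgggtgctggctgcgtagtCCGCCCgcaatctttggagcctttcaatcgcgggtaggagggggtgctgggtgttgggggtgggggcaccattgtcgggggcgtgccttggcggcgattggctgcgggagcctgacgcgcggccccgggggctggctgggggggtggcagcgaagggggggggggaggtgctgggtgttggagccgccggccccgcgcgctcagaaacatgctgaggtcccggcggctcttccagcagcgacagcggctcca
The *Adra2a* window is chr19:54045009-54045308. It holds 1 TATAAA at position -29, 1 CACGTG at -80 and 1 GGGCGG at -102, counted from the RefSeq start as 0, and these matches do not overlap. GENCODE M21 gives this gene a second, longer model that starts upstream at 54044151, so the window also lies within an exon of that model. The *Adrb1* window is chr19:56721867-56722166 and holds 1 GGGCGG (read as CCGCCC on the plus strand) at -202 and none of the other 3 motifs. Of the 32851 RefSeq promoter windows of this length, 13.6% hold TATAAA, 7.15% CACGTG, 35.7% GGGCGG and 1.79% TGACGTCA. A match is a description of the letters and not evidence of binding.

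*Adra2a* was the one member with a mean above 1 FPKM in any cell type, and so the one that entered the fit across 14405 genes (limma on log2(FPKM + 1), Benjamini-Hochberg adjustment, calls at an adjusted p under 0.05). Beta cells exceeded alpha cells by 2.57 on the log2 scale (SE 0.349, 95% interval 1.83 to 3.31, adjusted p = 0.000169 by limma), a comparison in which 7.66% of all genes tested were called, 2.84% as higher and 4.82% as lower in beta cells. Delta cells exceeded alpha cells by 1.68 (SE 0.315, 95% interval 1.01 to 2.35, adjusted p = 0.00252 by limma), where 6.81% of genes were called, 5.33% as higher and 1.48% as lower in delta cells. As 1 member was tested, these shares are printed for scale only. As ratios of mean FPKM, beta cells held 16.6 times and delta cells 7.64 times the alpha cell level, the log2 scale with 1 FPKM added giving smaller differences because the alpha values are low. Without alpha sample 1 these ratios were 39.9 and 18.4. Among the genes tested, 202 had a more positive difference between beta and alpha cells than *Adra2a*, and 569 had a more positive one between delta and alpha cells.

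Between delta and beta cells the *Adra2a* means differed by a ratio of 2.17 in favour of beta cells. The log2 difference of -0.89 (SE 0.335, 95% interval -1.60 to -0.18) did not pass (adjusted p = 0.0895 by limma, unadjusted p = 0.0175), in a comparison that called 14.7% of genes, 11.7% as higher and 2.99% as lower in delta cells. An exact two-sided permutation test of these 10 samples gave p = 0.0190, unadjusted. The call came and went with the scaling, since it passed with limma after median-ratio size factors (-1.23, adjusted p = 0.0109) and after quantile normalization (-1.28, adjusted p = 0.00680), and also without beta sample 3 (-1.12, adjusted p = 0.0431). Over all alternatives the adjusted p by limma ran from 0.00680 to 0.252. The other 2 differences were called under every alternative tried. The exact permutation tests for these gave 0.0159 for beta against alpha and 0.00433 for delta against alpha, in each case the smallest p that the group sizes allow.

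**Figure D1:**
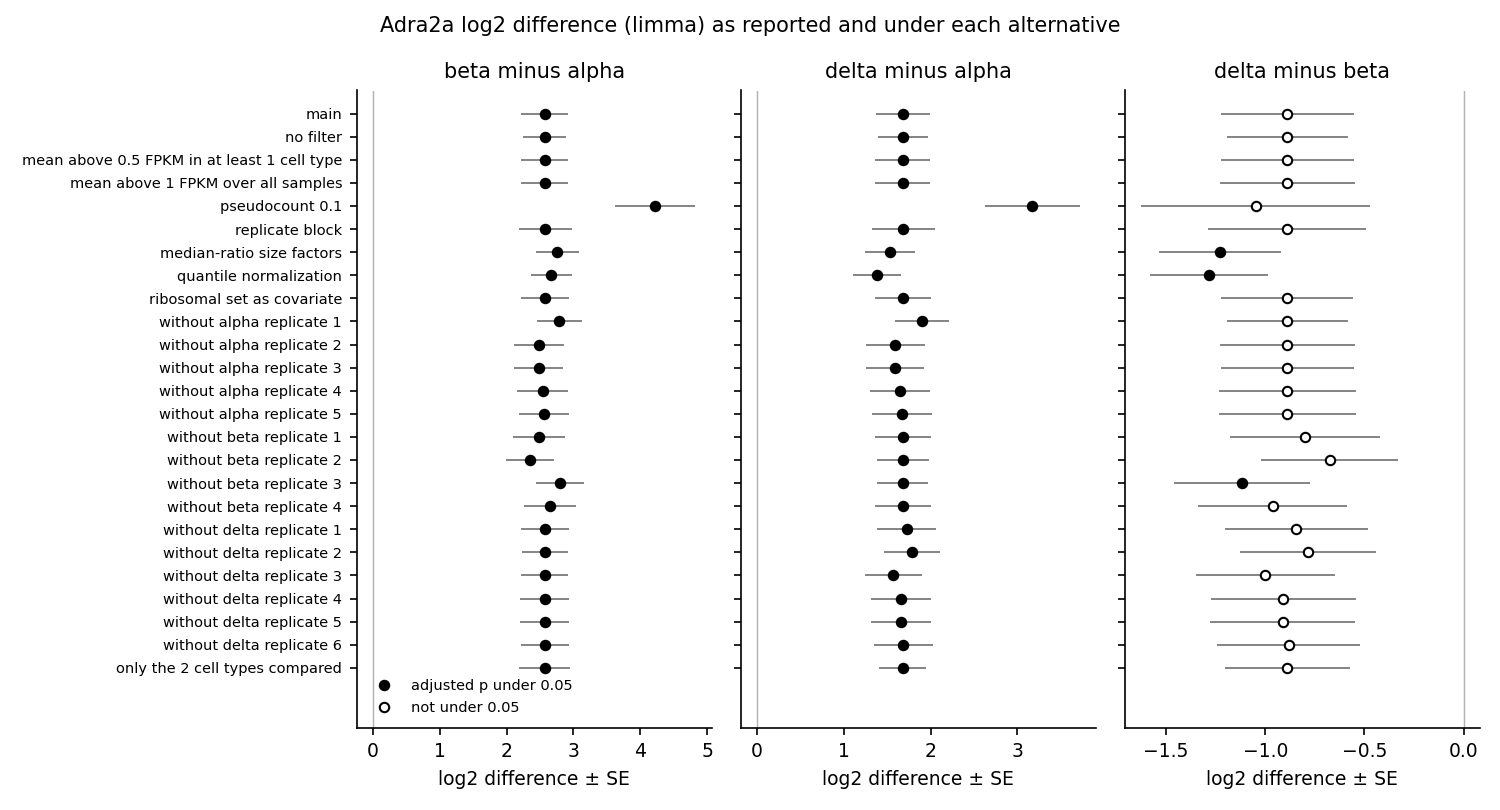
*Adra2a* log2 difference by limma (horizontal axis, log2(FPKM + 1) units, bars ± SE) as reported (main) and under each alternative (rows), filled where the adjusted p was under 0.05. Both differences from alpha cells are filled throughout, whereas delta against beta is filled under the 2 scalings and without beta sample 3.

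The order of the *Adra2a* means, beta above delta above alpha, was the same within both ribosomal sets. In the higher set the means were 0.572 FPKM in 3 alpha samples, 11.8 in the 1 beta sample and 2.45 in 2 delta samples. In the lower set they were 0.306 in 2 alpha samples, 6.35 in 3 beta samples and 4.11 in 4 delta samples. Alpha sample 1, the highest of the alpha samples for *Adra2a*, was also the alpha sample with the most *Ins2*, at 9094 FPKM against 2634 to 5502 in the other 4; the part of this in the *Adra2a* value was not tested. Without alpha sample 1 the differences rose to 2.79 for beta and 1.90 for delta cells on the log2 scale.

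In depth, the *Adra2a* values rest on about 95.7 to 785 reads in delta samples 1 to 4, on about 40.9 reads in alpha sample 5 and on about 2.97 reads in alpha sample 2, where single-read steps were resolved. In rank, 5338 genes had a higher mean than *Adra2a* in beta cells, of 20101 above 0, against 8930 of 22155 in delta cells and 13806 of 20158 in alpha cells. The 5 genes tested whose log2 values ran most like those of *Adra2a* over the 15 samples were *Itpkb* (r = 0.944), an inositol trisphosphate kinase, *Pcsk1* (r = 0.940), the proinsulin convertase PC1/3, *Glp1r* (r = 0.937), the GLP-1 receptor, *Klhl32* (r = 0.927) and *Galnt14* (r = 0.918). All 5 had their highest mean in beta cells, from 3.33 FPKM for *Galnt14* to 207 for *Glp1r*, and their lowest in alpha cells. These correlations are descriptions over samples that share 3 cell types.

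The other members were at or below 1.76 FPKM in every sample, and *Adra2a* made up most of the summed FPKM of the 8 genes outside alpha cells. It held 97.5% to 99.7% of the sum in beta samples and 81.7% to 93.3% in delta samples. In alpha samples its share ran from 4.33% to 100%. The sum itself was 4.21 to 11.9 FPKM in beta cells, 2.55 to 6.00 in delta cells and 0.0763 to 1.97 in alpha cells, so the largest alpha sum lay below the smallest delta sum.

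**Figure D2:**
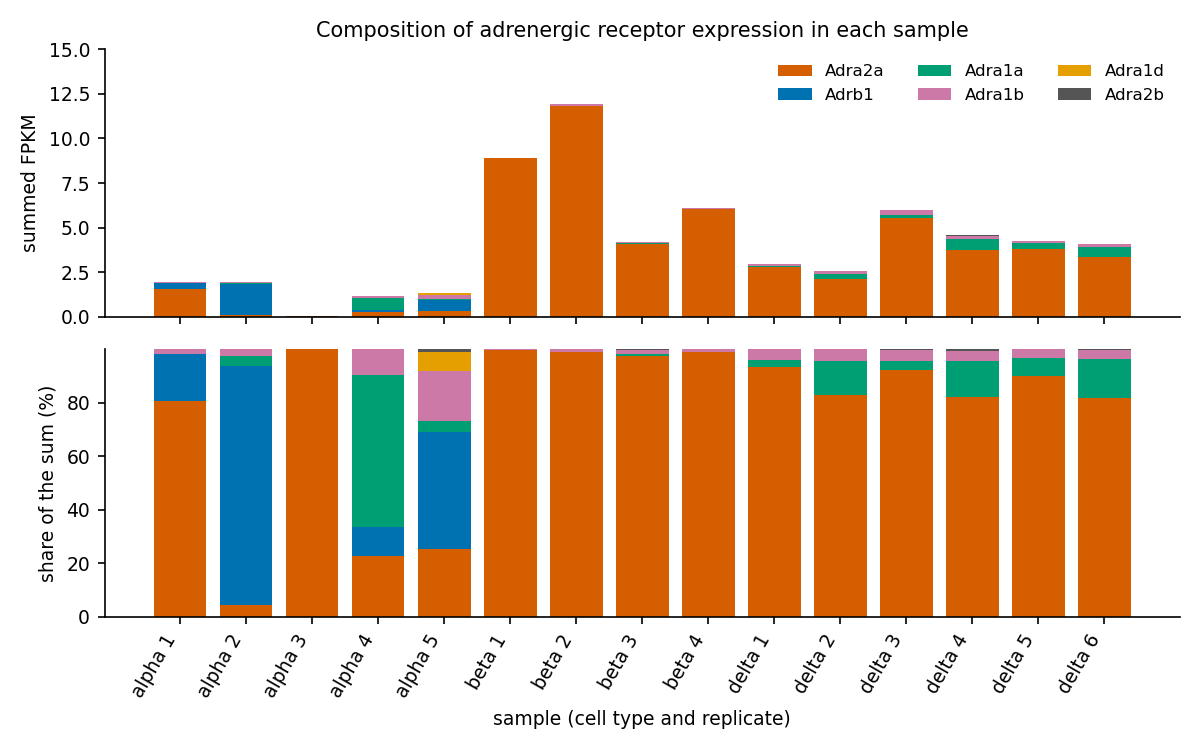
Summed FPKM of the adrenergic receptor genes in each sample (upper panel) and each gene's share of that sum in percent (lower panel), coloured by gene. *Adra2a* fills 97.5% or more of every beta bar, *Adra1a* and *Adra1b* take visible shares of the delta bars, and no single gene leads in all alpha samples.

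*Adrb1*, which encodes the beta-1 receptor that raises heart rate and contractility, was seen in alpha cells alone. It lies at chr19:56722199-56733113 on the plus strand. Its values in alpha samples 1 to 5 were 0.345, 1.76, 0, 0.129 and 0.594 FPKM (0.566 ± 0.706, SD, n = 5), and it was listed at 0 in all 4 beta and all 6 delta samples. The groups overlapped only because alpha sample 3 was also listed at 0. About 36.4 reads in alpha sample 2 and 42.2 in alpha sample 5 lie behind these values. In delta samples 1 to 4, 3 reads would have given 0.0356 to 0.111 FPKM, so levels of the size in alpha samples 1, 2, 4 and 5 exceed what a count of 0 allows there; the limit covers counting error only, and for the beta samples the depth is unknown.

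The *Adrb1* difference was not called in the limma fit without a filter on low values (adjusted p = 0.274 for delta against alpha and 0.332 for beta against alpha cells). Summed markers of pericytes and stellate cells (6 genes) were also higher in alpha samples, at 1.93 to 4.95 FPKM, than in beta samples, at 0.0972 to 0.908, or delta samples, at 0.289 to 1.30. Of these markers *Col1a1* and *Cspg4* were listed at 0 in all alpha samples, *Col3a1* in alpha samples 1 to 4 and *Acta2* in alpha samples 3 to 5. Only 1 or 2 of the 6 genes were above 1 FPKM in any alpha sample. Summed duct markers (5 genes) were highest in alpha sample 2, the sample with the most *Adrb1*. The sum was 172 FPKM there against 25.3 to 58.1 in the other alpha samples. *Cftr* was listed at 0 in all alpha samples and *Sox9* in alpha samples 1 to 4. The part of these cells in the *Adrb1* values was not tested.

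**Figure D3:**
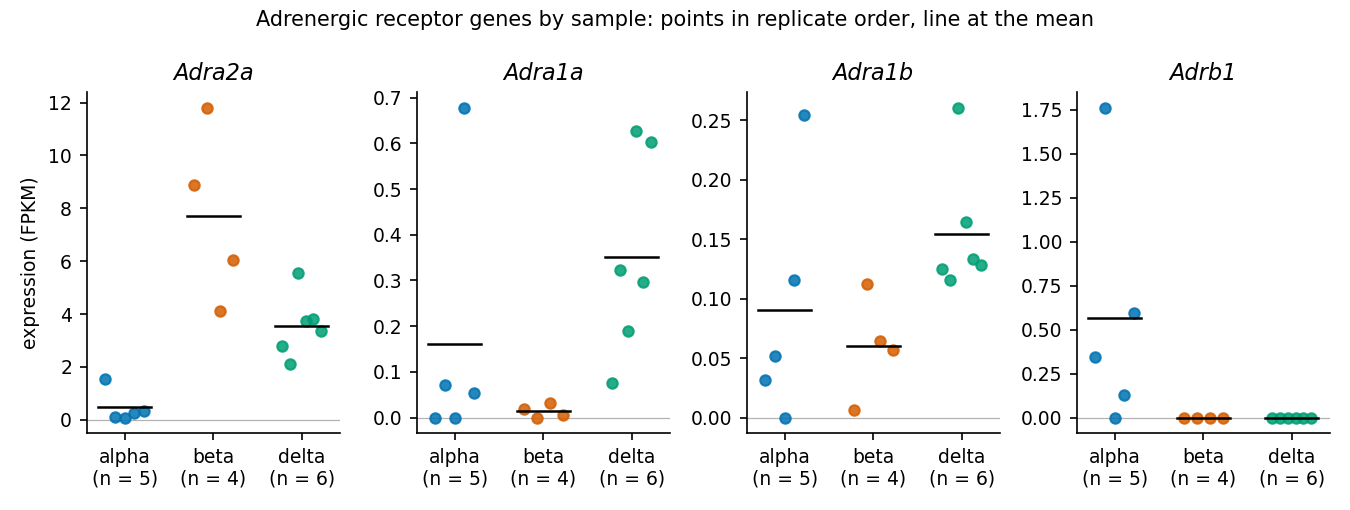
FPKM (vertical axes, a separate scale in each panel) of *Adra2a*, *Adra1a*, *Adra1b* and *Adrb1* in each alpha, beta and delta sample, with a line at the mean. *Adra2a* separates alpha samples from the rest, *Adra1a* and *Adra1b* separate delta from beta samples at levels under 0.7 FPKM (for *Adra1b* the sign turned after quantile normalization), and *Adrb1* is above 0 in 4 of 5 alpha samples.

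Both alpha-1 receptor genes that could be compared had higher means in delta than in beta cells at low levels, although for *Adra1b* the sign turned after quantile normalization, and neither was called in the limma fit without a filter (adjusted p = 0.208 for *Adra1a* and 0.368 for *Adra1b*). *Adra1a* (chr14:66635251-66771168, plus strand), which encodes the alpha-1A receptor, was above 0 in all 6 delta samples, from 0.0763 to 0.627 FPKM with a median of 0.309. In beta samples 1 to 4 it was at 0.0186, 0, 0.0311 and 0.00579 FPKM. In alpha samples 1 to 5 it was at 0, 0.0707, 0, 0.678 and 0.0548 FPKM. Delta and beta samples did not overlap, whereas alpha sample 4 exceeded every delta sample. The means were 0.352 ± 0.221 FPKM in delta (SD, n = 6), 0.0139 ± 0.0139 in beta (SD, n = 4) and 0.161 ± 0.291 in alpha cells (SD, n = 5).

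The exact two-sided permutation test gave p = 0.00952 for *Adra1a* in delta against beta cells, unadjusted and the smallest possible, and this permutation p stayed under 0.05 under the pseudocount, scaling and leave-one-out alternatives. For delta against alpha cells p was 0.195, and 0.00952 without alpha sample 4. For beta against alpha cells p was 0.254. The delta values in samples 1 to 4 correspond to about 3.37 to 64.7 reads.

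*Adra1b* (chr11:43774606-43901210, minus strand), which encodes the alpha-1B receptor, was at 0.115 to 0.261 FPKM in delta cells with a median of 0.131. It was at 0.00611, 0.112, 0.0642 and 0.0566 FPKM in beta samples 1 to 4, and at 0.0315, 0.0517, 0, 0.116 and 0.254 in alpha samples 1 to 5. Every delta sample lay above every beta sample, by as little as 0.115 against 0.112 FPKM, and the alpha samples spanned both. The exact permutation p was 0.00952 for delta against beta cells, 0.190 for delta against alpha cells and 0.746 for beta against alpha cells. The delta against beta difference of 0.12 on the log2 scale depended on the scaling, since p was 0.0667 after size factors and the sign turned after quantile normalization (-0.039, p = 0.495, exact permutation). For delta against alpha cells p was 0.0190 without alpha sample 5. Among the 14405 genes tested, 14.9% had delta and beta samples that did not overlap. Over *Adra2a*, *Adra1a* and *Adra1b*, 9 comparisons were tested by permutation, of which 5 had an unadjusted p under 0.05.

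Markers of other pancreatic cells differed between the same groups. Summed acinar markers (6 genes, all 6 above 0 in every delta sample) were at 19.6 to 466 FPKM in delta samples and at 0.0283 to 8.82 in beta samples, with 0.0651 to 63.2 in alpha samples. Delta sample 4, with the highest acinar sum, had the highest delta value of *Adra1a*, while delta sample 6, at 0.603 FPKM of *Adra1a*, had an acinar sum of 21.6. Summed endothelial markers (7 genes) were at 2.99 to 6.17 FPKM in delta samples, 0.621 to 3.35 in beta samples and 1.47 to 2.88 in alpha samples. Of these only 1 gene was above 1 FPKM in each delta sample, and *Tek* and *Cdh5* were each at 0 in 4 of 6 delta samples. The part of these cells in the receptor values was not tested.

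The remaining members were at or near 0. *Adra1d* (chr2:131545850-131562283, minus strand), the alpha-1D receptor gene, was above 0 only in alpha sample 5, at 0.0971 FPKM or about 4.26 reads, and it shares exonic sequence with the antisense gene *Gm14285*, whose reads cannot be told apart from its own where strand was not used in counting. *Adra2b* (chr2:127363208-127367221, plus strand), the alpha-2B receptor gene, was above 0 in 1 of 5 alpha, 2 of 4 beta and 3 of 6 delta samples and did not exceed 0.0315 FPKM. In the samples with resolved steps these *Adra2b* values amount to about 0.999 to 3.04 reads, and they were not tested. *Adra2c* (chr5:35278319-35281763, plus strand), the alpha-2C receptor gene, and *Adrb3* (chr8:27225776-27250616, minus strand), the beta-3 receptor gene best known from fat cells, were listed at 0 in all 15 samples. For *Adra2c*, 3 reads would have given 0.0302 to 0.123 FPKM in the 6 samples with resolved steps.

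Genes that carry G-protein signals inside the cell, in 11 lists, and genes that make, store, take up and break down catecholamines, in 1 list, held 109 genes, of which 77 were tested. Of these, 13 were called between beta and alpha cells (4 up and 9 down in beta cells, 16.9% against 7.66% of all genes), 13 between delta and alpha cells (9 up and 4 down in delta cells, 16.9% against 6.81%) and 25 between delta and beta cells (16 up and 9 down in delta cells, 32.5% against 14.7%). The median log2 difference over the 77 genes was -0.12, 0.37 and 0.40 in these comparisons, beside -0.13, 0.13 and 0.30 over all genes tested. The split of these calls moved with the scaling. With size factors 8 were up and 9 down in beta against alpha cells and 8 up and 6 down in delta against alpha cells, and with quantile normalization these were 6 and 9, and 7 and 7. The number up in delta against alpha cells was 5 without alpha sample 3, without delta sample 3, without a filter or under the replicate block (the sample number as a term in the fit). The acinar and endothelial marker values given above for delta and beta cells, and the pericyte values for alpha cells, stand beside these comparisons too, and their part was not tested. *Gnao1*, *Gnaq*, *Rgs7*, *Slc18a1* and *Dbh* fall outside the naming rule and were chosen after their values were seen. Each other list gene named below was called with limma and had samples that did not overlap in at least 1 comparison, and each called difference kept its sign under every alternative.

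For the Gi and Go family, through which alpha-2 receptors act, 5 of 5 genes were tested, and by limma 1 was called between beta and alpha cells, 1 between delta and alpha cells and 0 between delta and beta cells (2 at an unadjusted p under 0.05), where 7.66%, 6.81% and 14.7% of all genes were called. The gene called was *Gnai1* both times. *Gnai1* was at 20.5 to 58.1 FPKM in alpha cells (mean 46.0) and at 5.30 ± 1.53 in delta cells (SD, n = 6), a log2 difference of -2.86 for delta against alpha (adjusted p = 0.000982 by limma). In beta cells it was at 9.44 ± 10.9 FPKM (SD, n = 4), with 25.6 in beta sample 2 and 1.68 to 5.53 in the others, and the difference from alpha cells was -2.61 (adjusted p = 0.00603 by limma), a call lost when only these 2 cell types were fitted and one whose samples overlapped. *Gnai1* had its highest mean in alpha cells, the cell type with the least *Adra2a*, and any link between them was not tested. The family's other members did not pass in any comparison, with means of 86.5 FPKM in alpha, 167 in beta and 146 in delta cells for *Gnao1*, the most abundant of them. Of the 2 tested Gq family genes 0 were called by limma (1 at an unadjusted p under 0.05, between delta and beta cells), and *Gnaq* was at 18.5, 21.4 and 24.2 FPKM in alpha, beta and delta cells.

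*Gnas*, which encodes the Gs subunit used by beta receptors, was lower in beta cells at 228 ± 82.7 FPKM (SD, n = 4) than in alpha cells at 1310 ± 424 (SD, n = 5) and in delta cells at 1142 ± 148 (SD, n = 6). The log2 differences were -2.52 for beta against alpha (adjusted p = 0.000589 by limma) and 2.38 for delta against beta (adjusted p = 0.000444). Of 11 beta and gamma subunits tested, *Gng12* was at 187 FPKM in beta cells against 22.5 in alpha cells and 58.4 in delta cells, and *Gnb4* was at 0.634 in beta against 8.77 in delta cells. *Gnb2* was at 13.3 FPKM in beta against 64.8 in delta cells. The *Gnb2* and *Gnb4* differences between delta and beta cells were 2.36 (adjusted p = 0.00535) and 2.54 (adjusted p = 0.000661), and that of *Gng12* between beta and alpha cells was 2.74 (adjusted p = 0.00122), all by limma.

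GIRK channels are potassium channels opened by G beta-gamma released from Gi-coupled receptors. Of 4 GIRK genes, 2 passed the filter and were tested, and both were called as lower in beta than in alpha cells and as higher in delta than in beta cells, where 4.82% and 11.7% of all genes were called in those directions. *Kcnj3* (GIRK1) was at 5.29 to 14.4 FPKM in alpha cells (mean 9.97) and at 2.05 to 4.56 in delta cells (mean 3.35), and it was listed at 0 in 3 of 4 beta samples and at 0.107 in beta sample 4. The log2 differences were -3.33 for beta against alpha (adjusted p = 5.48e-06), -1.29 for delta against alpha (adjusted p = 0.0105) and 2.04 for delta against beta (adjusted p = 0.000316), by limma. *Kcnj6* (GIRK2) was at 4.79 FPKM in alpha, 0.713 in beta and 3.94 in delta cells, with a difference of -1.64 for beta against alpha (adjusted p = 0.0173 by limma) that did not pass without beta sample 1 or when only these 2 cell types were fitted. Its delta against beta difference of 1.43 (adjusted p = 0.0168 by limma) did not pass after size factors (adjusted p = 0.0535) or quantile normalization (adjusted p = 0.0730), nor without beta sample 1.

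RGS proteins shorten G-protein signals. Of 13 RGS genes tested, delta cells had 3 called as higher and 0 as lower against alpha cells by limma (4 and 0 at an unadjusted p under 0.05), and 4 as higher and 1 as lower against beta cells, where 5.33% and 11.7% of all genes tested were called as higher. Of the 3 calls against alpha cells, *Rgs9* was called under all 24 alternatives, *Rgs20* under 18 (not without alpha sample 3, delta sample 3 or delta sample 4, without a filter, after quantile normalization or with only these 2 cell types fitted) and *Rgs7* under 11 (not without any 1 of the alpha or delta samples, with a pseudocount of 0.1 or under the replicate block). *Rgs9* was at 22.7 ± 3.89 FPKM in delta cells (SD, n = 6) against 2.67 ± 2.14 in alpha (SD, n = 5) and 4.65 ± 3.08 in beta cells (SD, n = 4), with adjusted p = 7.76e-05 and 0.00108 by limma. *Rgs20* was at 5.25 FPKM in delta, 1.23 in alpha and 0.0303 in beta cells, with a difference of 2.45 from beta cells (adjusted p = 0.000499 by limma). *Rgs4* was instead highest in alpha cells, at 64.3 FPKM against 4.92 in beta and 30.5 in delta cells, and fell by 3.67 on the log2 scale from alpha to beta cells (adjusted p = 0.000475 by limma).

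Of the 5 adenylyl cyclases tested, *Adcy2* and *Adcy8* were found in delta cells, at 2.05 ± 0.385 and 2.52 ± 0.682 FPKM (SD, n = 6), and were at or below 0.129 FPKM in every alpha and beta sample. Both passed the filter through delta cells alone, and their p-values are therefore not given. *Adcy6*, a cyclase inhibited by Gi, was at 8.17 FPKM in delta cells against 1.81 in beta cells (difference 1.65, adjusted p = 0.0116 by limma). Between beta and alpha cells 0 of the 5 cyclases were called by limma (2 at an unadjusted p under 0.05), where 7.66% of all genes tested were called.

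Of 8 cAMP effectors tested, 1 was called between beta and alpha cells, 0 between delta and alpha cells by limma (2 at an unadjusted p under 0.05) and 2 between delta and beta cells, and of 11 phosphodiesterases these numbers were 1, 1 and 2, where 7.66%, 6.81% and 14.7% of all genes were called. The effector call between beta and alpha cells held under only 14 of 24 alternatives, and not without a filter or under the replicate block. *Rapgef4* (EPAC2) was at 77.0 FPKM in beta against 24.6 in delta cells (difference -1.47, adjusted p = 0.0260 by limma), a call lost without beta sample 4 or delta sample 1. *Rapgef3* (EPAC1) was at 3.90 FPKM in delta against 0.122 in beta cells (adjusted p = 0.0200 by limma), a call lost without beta sample 4, without a filter and under the replicate block (adjusted p = 0.0795). Among the phosphodiesterases, *Pde8a* was at 44.6 FPKM in beta against 2.90 in delta cells (adjusted p = 0.00303), *Pde4d* at 0.564 in beta against 9.26 in alpha cells (adjusted p = 0.00329) and *Pde7b* at 10.6 in delta against 0.645 in alpha cells (adjusted p = 0.000699), by limma. The *Pde8a* values in beta cells spread widely, from 5.57 to 79.8 FPKM (SD 40.7, n = 4), against at most 4.31 in delta cells. The receptor kinase *Grk5* was at 7.70 FPKM in beta against 1.12 in delta cells (difference -1.87, adjusted p = 0.00586 by limma), the 1 call among 7 receptor kinases and arrestins in the 3 comparisons.

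Of 14 genes of catecholamine synthesis, storage, uptake and breakdown 6 were tested, of which 1 was called as higher in beta than in alpha cells, 1 as higher and 2 as lower in delta against alpha cells, and 4 as lower in delta against beta cells, where 2.84%, 5.33%, 1.48% and 2.99% of all genes were called in those directions. Of the 4, *Ddc* and *Maob* were called under all 24 alternatives, *Th* under 19 (not without beta sample 2 or delta sample 6, without a filter, under the replicate block or with only these 2 cell types fitted) and *Slc18a1*, a vesicular monoamine transporter, under 13 (not without beta sample 1 or 4 or any 1 of the delta samples, without a filter, with a pseudocount of 0.1 or under the replicate block). *Th*, tyrosine hydroxylase, the rate-limiting enzyme of catecholamine synthesis, was at 4.61 to 30.7 FPKM in beta cells, at 1.12 to 6.19 in delta cells and at or below 0.0576 in alpha cells. Its log2 difference was 3.29 for beta against alpha cells (adjusted p = 0.000245 by limma) and 1.71 for delta against alpha cells (adjusted p = 0.0174), a call lost without a filter and under the replicate block (adjusted p = 0.0564). *Ddc*, the decarboxylase that makes dopamine, was at 98.6 ± 11.3 FPKM in alpha (SD, n = 5) and 173 ± 140 in beta cells (SD, n = 4) and at 5.39 ± 2.75 in delta cells (SD, n = 6), with differences of -4.09 and -4.54 for delta against alpha and beta cells (adjusted p = 2.83e-05 and 1.50e-05 by limma). *Maob*, a monoamine oxidase, followed the same order, at 28.1, 56.3 and 2.56 FPKM in alpha, beta and delta cells (adjusted p = 6.31e-05 and 1.12e-05 for delta against alpha and beta cells by limma). *Dbh*, which converts dopamine to noradrenaline, was listed at 0 in all 15 samples.

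**Figure D4:**
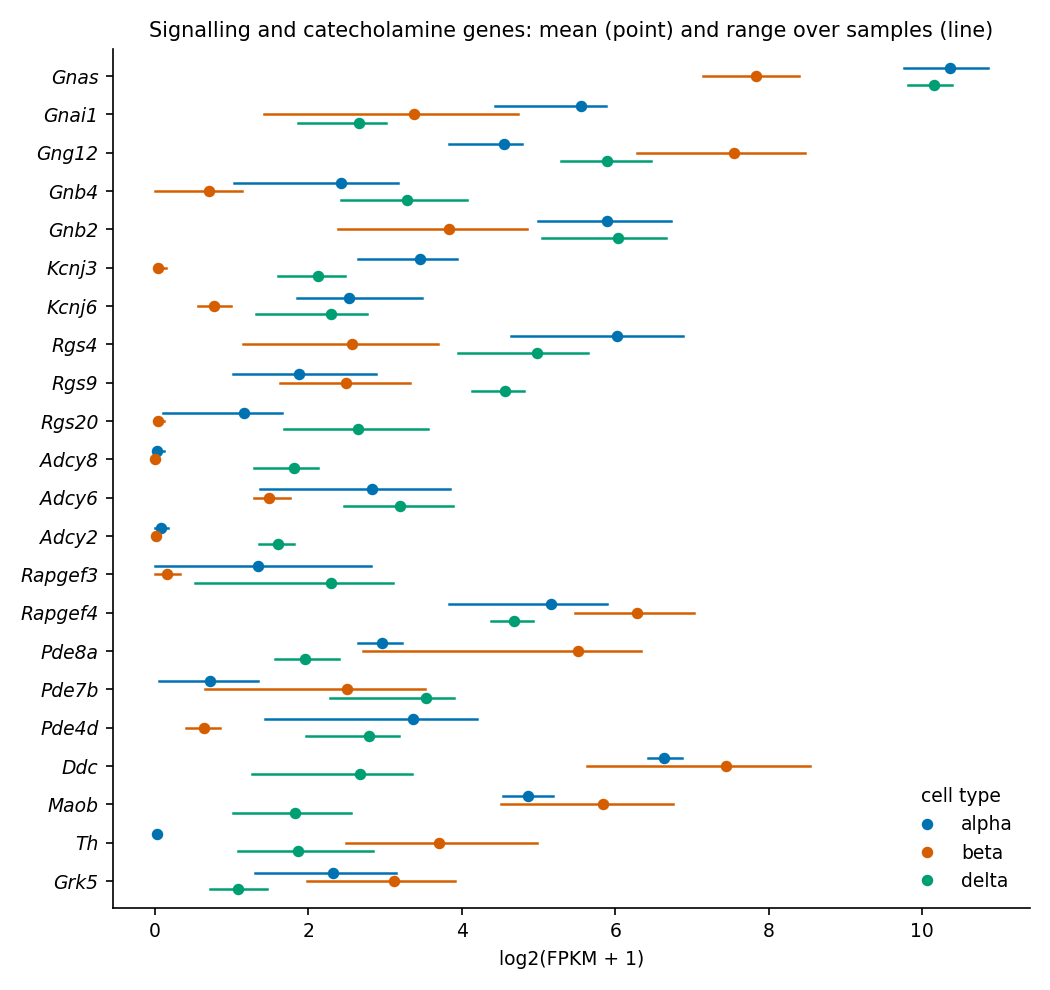
Mean (points) and range over samples (lines) of log2(FPKM + 1) for the named G-protein, cAMP, GIRK, RGS and catecholamine genes in alpha (n = 5), beta (n = 4) and delta (n = 6) cells. *Kcnj3* is near 0 in beta cells, *Adcy2* and *Adcy8* are near 0 outside delta cells, and *Ddc* and *Maob* are lowest in delta cells.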

How the data were processed

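RNA from sorted alpha, beta and delta cells was amplified before sequencing (single-end, 50 nt). The deposited values are the authors' FPKM, computed by Cufflinks 2.2.1 from alignments to GRCm38 (TopHat2 2.0.8, per the submitters' processing notes). The published methods name a later TopHat version. The annotation release and any scaling between libraries are not given in the sources used here. The authors' edgeR comparison took read counts as input; those counts were not analysed here and no count test was made. Genes with a mean above 1 FPKM in at least 1 cell type (14405) were fitted with limma 3.58.1 in R 4.3.3 on log2(FPKM + 1), all 15 samples in one fit, with Benjamini-Hochberg adjustment; fold changes on this scale understate those of low genes. The fit was tested on simulated data. Single members were compared by two-sided exact permutation tests (SciPy 1.17.1) of mean log2(FPKM + 1), unadjusted, if above 0 in more than 50% of the samples of a cell type; those of *Adrb1*, which entered through alpha cells alone, are not given. No source names separate cultures beyond pools of mice, so p-values measure the spread between pools. Read steps were searched in genes with 1 transcript over 1000 nt, with an assumed fragment of 200 nt, and taken as resolved at a step score above 0.25. Alpha sample 5 was close to that limit, at 0.273, and all read numbers derived from the steps are approximate. Genes named from the 12 lists were called without overlap between samples in at least 1 comparison, at most 3 per list by size, except *Gnao1*, *Gnaq*, *Rgs7*, *Slc18a1* and *Dbh*, chosen after their values were seen. Members and lists were chosen with earlier results of these data known. Coordinates are from GENCODE M21 and promoter windows from the RefSeq table for GRCm38.p6, which matched 5 of the 8 members (not *Adra1a*, *Adra1d* or *Adrb3*). Some genes are not reported here. Alternatives were other filters, a pseudocount of 0.1, other scalings, the ribosomal set as covariate, a replicate block, only the 2 cell types compared, and leaving out each sample. Other steps used Python 3.11.15.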

Additional observations from a re-analysis of the deposited data

Results flagged for a closer look

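In 15 of 80 groups of one gene in one cell type, 1 sample stood apart from the others of its cell type by more than Dixon's 95% critical value. Chance flags about 1 in 20 groups, but no chance count holds for 4 of the 15, in which every other sample was at 0 and the ratio was fixed at 1. Among the receptors these were *Adra2a* in alpha sample 1 (1.56 FPKM, others 0.0763 to 0.343), *Adra1a* in alpha sample 4 (0.678, others 0 to 0.0707), *Adra1b* in delta sample 3 (0.261, others 0.115 to 0.164), and *Adra1d* and *Adra2b* in alpha sample 5 (0.0971 and 0.0124, others 0). Among the pathway genes, alpha sample 5 stood apart for *Kcnj6* (10.2 FPKM), *Rgs9* (6.41) and *Adcy8* (0.0894), alpha sample 4 for *Gng12* (13.3, below the others) and alpha sample 2 for *Rapgef3* (6.08). Beta sample 2 stood apart for *Gnai1* (25.6 FPKM), *Th* (30.7) and *Adcy2* (0.0327), beta sample 4 for *Kcnj3* (0.107) and delta sample 1 for *Th* (6.19).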

How the results depend on the processing

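The *Adra2a* differences of beta and delta from alpha cells were called by limma under all 24 alternatives each. The number of members called for delta against beta was 0 by limma (1 at an unadjusted p under 0.05), and 1 with size factors, quantile normalization or without beta sample 3, where the *Adra2a* difference was -1.23, -1.28 and -1.12; leaving out each sample in turn gave -1.12 to -0.68. *Adra1b* reversed for beta against alpha (0.0050 with quantile normalization, 0.014 without alpha replicate 5; leaving out each sample in turn gave -0.068 to 0.014), delta against alpha (-0.034, quantile) and delta against beta (-0.039, quantile); the cause was not tested. Genes called between beta and alpha cells numbered 1104, but 2072 with size factors, 2056 with quantile normalization, 520 with only these 2 cell types fitted, and 702, 696, 1698 and 651 without alpha sample 2 or beta samples 1, 2 or 4; of the list genes, 3 were higher and 4 lower with only these 2 cell types fitted. The share of calls that were higher was 37.0%, 78.3% and 79.6% for beta against alpha, delta against alpha and delta against beta, but 52.7%, 67.9% and 51.5% with size factors and 48.1%, 61.4% and 53.1% with quantile normalization, and 20.8% without beta sample 2 and 60.1% without beta sample 3 for beta against alpha; size factors moved the median of all genes to 0, 0.0046 and 0.017. Same-numbered samples did not consistently deviate together (13 pairs, mean r 0.076, 5 above 0.1). The other pairs between cell types numbered 61 (mean r -0.016, 17 above 0.1). Numbers were therefore not taken as pairs. Whether alpha and beta samples, both from Glu-Venus mice, shared pools is not given in the sources used here, and pairs with delta cells cross mouse lines. With the replicate block the *Adra2a* differences were 2.58, 1.69 and -0.89 (adjusted p = 0.00471, 0.0237 and 0.168 by limma). Genes called under it numbered 1227, 831 and 2001. The calls of *Th* and *Slc18a1* for delta against beta were lost under the block (adjusted p = 0.105 for both) and without a filter. Under the block 5 list genes were up and 4 down in delta against alpha cells. Depth is unknown in 9 samples, which limits what a listed 0 shows.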
